A study of Rattus norvegicus with 12 samples.

Results

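The genes described are 36 genes of glycolysis and of the response to low oxygen, taken by symbol from a list, of 34034 genes in the deposited table. All 36 symbols were found. They comprise 18 glycolytic enzymes, with the regulatory enzyme Pfkfb3 among them, and 18 other hypoxia genes, which are transporters, secreted signals, mitophagy and stress genes, oxygen sensors and collagen-modifying enzymes. A filter on low counts left 35 of them, and 13909 genes in all, for testing; *Aldoa* did not pass it.

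The libraries were made from the uterus of 8-week-old female rats by QuantSeq, a 3' mRNA method that counts a tag near the end of each transcript. There were 4 groups of 3 libraries. EEP tissue came from horns scraped with a bent needle (AS induction, a model of intrauterine adhesion) that received a printed endometrial patch with cells 2 days later. CP tissue had the same injury and a patch of the printing material Endo-UdECM without cells, AS tissue had the injury and no patch, and normal tissue had neither. All operated animals were anesthetized with 2,2,2-tribromoethanol. The labels name no rat strain, no source of the patch cells and no day of collection. They do not say that the libraries of a group are separate animals, so every p-value measures only the spread between these libraries, which may be partly technical.

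When oxygen is plentiful, prolyl hydroxylases mark the alpha subunits of the hypoxia-inducible factors, HIF1A and EPAS1, for destruction. When oxygen falls, these subunits accumulate, pair with ARNT and bind DNA at a short core sequence near target genes. Known targets raise glucose uptake and glycolysis, divert pyruvate to lactate, remove mitochondria and draw in new vessels. In endometrium, hypoxia and HIF1A have been studied mainly in repair of the lining after menstruation, in women and in mouse models.

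Total counts ran from 4866790 to 8938227 per library. Mitochondrial transcripts took 18.9% of the counts in EEP 1, 53.6% in EEP 2 and 76.3% in EEP 3, 64.8% to 82.5% in CP, 68.7% to 75.2% in AS and 44.1% to 56.5% in normal libraries. This left 1202525 counts for nuclear genes in EEP 3 and 5832552 in EEP 1. A count of 3 was worth 0.177 CPM in EEP 1 and 0.867 CPM in EEP 3, so low members were measured least precisely in EEP 3. Levels are in CPM, that is, counts divided by TMM-scaled library size. They are not divided by transcript length, and levels are not compared between genes. The tissue label is endometrium, and both stromal markers (2895 to 9880 CPM summed over 13 genes) and smooth muscle markers (2917 to 15115 CPM over 17 genes) were present in every library.

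No member passed an adjusted p of 0.05 in edgeR's quasi-likelihood test in any of the 6 comparisons, and none did in DESeq2, where 26 of the 35 had an adjusted p in EEP against AS tissue and all 35 in the other comparisons. At an unadjusted p under 0.05, between 0 and 7 did per comparison. The share of all tested genes that passed in edgeR was 0.00719% for AS against normal, 0.0144% for EEP against AS, 0.00719% for CP against AS, 0.0% for EEP against CP, 0.00719% for EEP against normal and 0.0% for CP against normal. In DESeq2 it was 0.2%, 1.76%, 0.801%, 0.0%, 0.409% and 1.86% in the same order. The member counts that follow are at an unadjusted p under 0.05. In AS against normal tissue 0 of 35 members reached it, against 5.55% of all genes. In EEP against AS tissue 1 member was higher (*Pfkfb3*), against 4.97% of all genes, and 5 were lower (*Gpi*, *Higd1a*, *Ldha*, *Pfkp* and *Pgam1*), against 5.17%. In CP against AS tissue 2 were higher (*P4ha1* and *Vegfa*), against 5.28%, and 5 were lower (*Eno1*, *Gapdh*, *Higd1a*, *Ldha* and *Pgam1*), against 6.71%. None of 35 did in EEP against CP tissue, against 2.99% of all genes. In EEP against normal tissue 2 were higher (*Eno2* and *Vegfa*), against 4.8%, and 2 were lower (*Ldhb* and *Pfkp*), against 2.76%. In CP against normal tissue 1 was higher (*Vegfa*), against 6.77%, and 1 was lower (*Ldhb*), against 5.88%. The EEP and CP comparisons with AS share the AS libraries, and those with normal share the normal libraries, so their values stand side by side and do not count as separate evidence.

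Groups that did not overlap, with every library of one above every library of the other, were found for 6 of 35 members in AS against normal tissue, against 14.8% of all genes. The number was 5 in EEP against AS, against 13.2%, and 7 in CP against AS, against 17.9%. It was 2 in EEP against CP, against 6.94%, 5 in EEP against normal, against 14.6%, and 6 in CP against normal tissue, against 27.9%. *Gpi*, *Pgam1* and *Tpi1* stood above normal in AS tissue, and *Aldoc*, *Ddit4* and *Ldhb* stood below it. *P4ha1* and *Pfkfb3* stood above AS in EEP tissue, and *Ldhb*, *Pfkp* and *Pgam1* below it. *Aldoc* and *Vegfa* stood above AS in CP tissue, and *Eno1*, *Gapdh*, *Gpi*, *Higd1a* and *Pgam1* below it. *Pfkfb3* stood above CP in EEP tissue and *P4ha2* below it. *Hk2*, *P4ha1* and *Pfkfb3* stood above normal in EEP tissue, and *Ldhb* and *Pfkp* below it. *Eno2* and *Vegfa* stood above normal in CP tissue, and *Eno1*, *Gapdh*, *Ldhb* and *Pdk1* below it.

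The glycolytic enzymes lay mostly above normal levels in AS tissue and below AS levels in both patch groups, without any passing. In AS against normal tissue 13 of the 17 tested enzymes had a positive log2 fold change, against 51.6% of all genes, with a median of 0.53, against 0.03 over all genes. In EEP against AS tissue 5 of 17 were positive, against 50.9% of all genes, and the median was -0.57, against 0.02. In CP against AS tissue 5 of 17 were positive, against 49.2% of all genes, and the median was -0.33, against -0.02. Against normal tissue the medians were -0.18 for EEP and -0.14 for CP. Of 25 further tested genes of glycolysis and glucose handling, outside the members, 14 were positive in AS against normal tissue, with a median of 0.09. Their medians were -0.30 in EEP against AS and -0.29 in CP against AS tissue. The 18 other hypoxia genes had medians of 0.12 in AS against normal, 0.27 in EEP against AS and 0.34 in CP against AS tissue. Between EEP and CP tissue the median was -0.01 over the enzymes and 0.03 over the other hypoxia genes. The enzymes summed to 367 to 729 CPM in EEP, 464 to 692 CPM in CP, 693 to 1098 CPM in AS and 556 to 630 CPM in normal libraries. Of the nuclear counts of each library, without TMM scaling, they took 0.106% to 0.211% in EEP and 0.128% to 0.195% in CP libraries. The share was 0.184% to 0.235% in AS and 0.159% to 0.170% in normal libraries, so AS overlapped both EEP and CP.

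These values depended on single libraries. EEP 1 was the highest EEP library for 26 of 35 members, against 39.5% of all genes, and EEP 3 the lowest for 18, against 36.6%. CP 1 was the highest CP library for 23 members, against 34.6% of all genes, although it had the fewest nuclear counts of its group. AS 1 was the highest AS library for 18, against 38.4%. Without EEP 1 the enzyme median of EEP against AS tissue was -1.19, and that of the other hypoxia genes changed sign to -0.70. Without AS 1 the enzyme median was 0.22 in AS against normal and -0.28 in EEP against AS tissue, and that of the other hypoxia genes in AS against normal tissue changed sign to -0.13. EEP 1 also had the smallest mitochondrial share. With that share as a covariate, the enzyme median was -1.15 in EEP against AS and changed sign to 0.40 in CP against normal tissue, and the median of the other hypoxia genes changed sign to -0.46 in EEP against AS tissue. With EEP 1 left out, 12 of 35 members were lower in EEP than in AS tissue at an unadjusted p under 0.05, against 9.46% of all genes, and 1 was higher, against 7.49%. None passed adjustment in that edgeR fit either, the smallest adjusted p being 0.0567 for *Gpi*. Other removals went the other way. The 5 members lower in the fit of all libraries were *Gpi*, *Higd1a*, *Ldha*, *Pfkp* and *Pgam1*. Leaving out AS 1 gave them unadjusted p-values of 0.0541 to 0.615 in edgeR. Of these, only *Pfkp* stayed under 0.05 when EEP 3 was left out (unadjusted p = 0.0351 in edgeR).

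**Figure D1:**
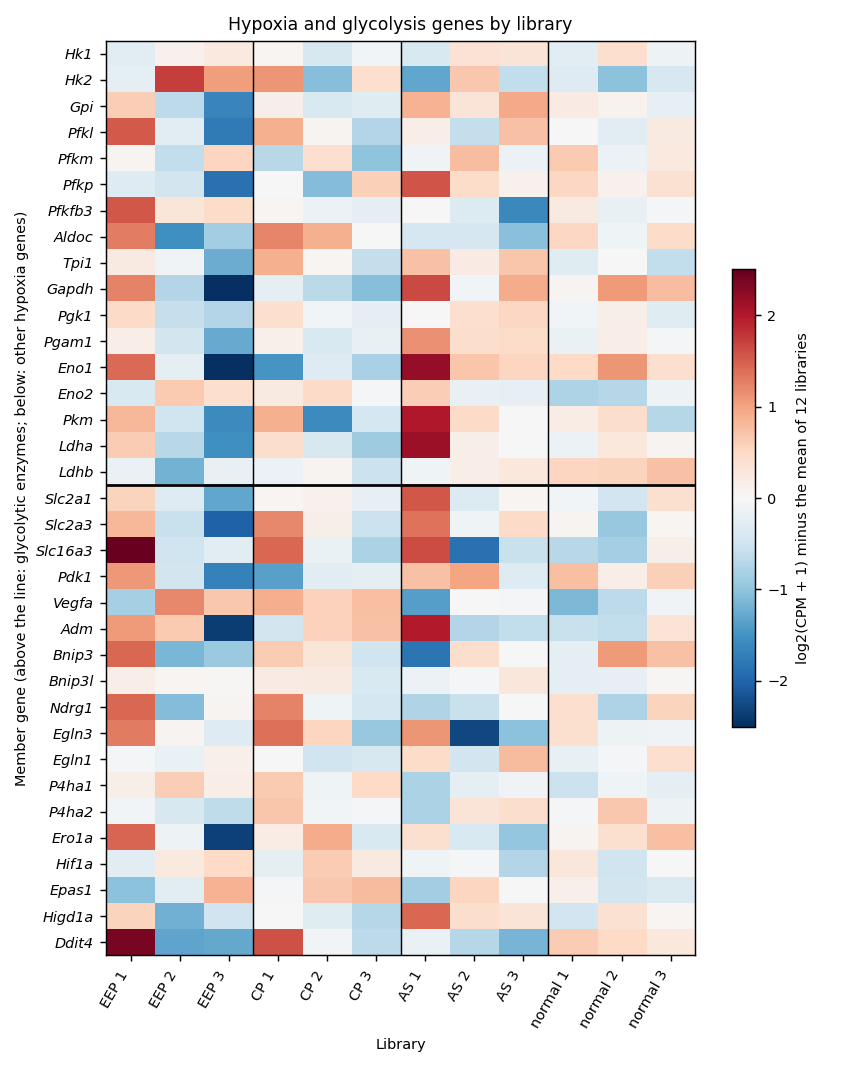
Heatmap of 35 tested members (rows) in 12 libraries (columns, by group); color is log2(CPM + 1) minus the gene's mean over the 12 libraries. EEP 1 was the highest EEP library for 26 of the 35 members and EEP 3 the lowest for 18.

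Markers of other cell types also differed between the patch groups and AS tissue. All 17 smooth muscle markers were lower in EEP than in AS tissue by fold change (median log2 fold change -1.25), none passing in edgeR and 8 in DESeq2. Their sum was 2917 to 5118 CPM in EEP, 4696 to 7104 CPM in CP, 9356 to 15115 CPM in AS and 7160 to 8673 CPM in normal libraries. Stratified epithelium markers summed to 105 to 149 CPM in EEP against 7.87 to 28.97 CPM in AS libraries, and 1 of the 7 tested passed. CP libraries held 8.55 to 55.4 CPM of them, overlapping AS, and against AS tissue 0 of the 7 passed in edgeR and 2 in DESeq2. Luminal epithelium markers summed to 2566 CPM in AS 1, against 174 CPM in AS 2 and 247 CPM in AS 3, and to 1538 CPM in EEP 1, against 295 CPM in EEP 2 and 227 CPM in EEP 3. AS 1 also held the most macrophage markers, 2829 CPM against 522 CPM in AS 3, and the most erythrocyte markers, 2811 CPM against 201 CPM in AS 2. No marker of these 5 lists was at 0 in all libraries. The part of these cell types in the members' levels was not tested. In tissue RNA, fewer cells of a type and less RNA per cell cannot be told apart.

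The first steps of glycolysis are the hexokinases, which trap glucose in the cell, Gpi, the isomerase of glucose 6-phosphate, and the phosphofructokinases, which commit the sugar to glycolysis. *Hk2* had 1.06, 7.05 and 4.05 CPM in EEP 1, 2 and 3, and 4.27, 0.168 and 2.28 CPM in CP 1, 2 and 3. The level was 0, 2.88 and 0.593 CPM in AS 1, 2 and 3, against 0.949, 0.200 and 0.863 CPM in normal 1, 2 and 3. *Hk2* had only 147 counts over all 12 libraries. All 3 EEP libraries were above the 3 normal ones, and the log2 fold change was 2.56 ± 1.38 (SE, adjusted p = 0.731). *Hk1*, the widespread hexokinase, spanned 24.2 to 43.6 CPM with overlapping groups throughout.

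In EEP 1, 2 and 3 *Gpi* stood at 68.5, 27.9 and 13.6 CPM, and in CP 1, 2 and 3 at 49.3, 34.1 and 36 CPM. In AS 1, 2 and 3 *Gpi* stood at 82.4, 55.6 and 87.4 CPM, and in normal 1, 2 and 3 at 51.9, 47.2 and 38.7 CPM. All 3 AS libraries lay above all 3 normal libraries and all 3 CP libraries, while EEP 1 stood inside the AS range and EEP 2 and 3 below it. *Gpi* gave -1.02 ± 0.46 (SE, adjusted p = 0.471) on the log2 scale for EEP against AS tissue and -0.92 ± 0.46 (SE, adjusted p = 0.442) for CP against AS tissue. Without EEP 1 the first value was -1.85 ± 0.41 (SE, adjusted p = 0.0567), and without EEP 3 it was -0.58.

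Libraries EEP 1, 2 and 3 held 19.4, 17.6 and 6.07 CPM of *Pfkp*, and libraries CP 1, 2 and 3 held 24.6, 11.1 and 37.9 CPM. Libraries AS 1, 2 and 3 held 75.7, 34.1 and 26.5 CPM, and libraries normal 1, 2 and 3 held 35.5, 26.7 and 32.3 CPM. *Pfkp*, the platelet-type phosphofructokinase (chr17:63729743-63794026 on mRatBN7.2), was below every AS and every normal library in all 3 EEP libraries, and AS 1 was far above the rest. The log2 fold change was -1.64 ± 0.52 (SE, adjusted p = 0.363) for EEP against AS and -1.12 ± 0.51 (SE, adjusted p = 0.651) for EEP against normal tissue; leaving out any library kept the first between -1.92 and -1.002, the weak end being without AS 1, and the second was -0.74 without EEP 3. Of the liver and muscle types, *Pfkl* averaged 8.81 ± 10.03 CPM in EEP and 7.37 ± 3.62 CPM in AS libraries (SD, n = 3 each), and *Pfkm* 19.6 ± 7.80 CPM in EEP and 22.2 ± 8.85 CPM in AS libraries.

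*Pfkfb3* had 29, 11.7 and 13 CPM in EEP 1, 2 and 3, and 9.55, 8.23 and 7.61 CPM in CP 1, 2 and 3. The level was 9.21, 7.10 and 2.37 CPM in AS 1, 2 and 3, against 11, 8.01 and 8.92 CPM in normal 1, 2 and 3. Pfkfb3 makes fructose 2,6-bisphosphate, the activator of phosphofructokinase (chr17:66983629-67064702). All 3 EEP libraries lay above all other 9 libraries, with EEP 1 far above EEP 2 and 3. The log2 fold change was 1.53 ± 0.54 (SE, adjusted p = 0.39) for EEP against AS, 1.09 ± 0.53 (SE, adjusted p = 1) for EEP against CP and 0.95 ± 0.53 (SE, adjusted p = 0.737) for EEP against normal tissue. Without EEP 1 the EEP against AS value was 0.98 ± 0.59 (SE, adjusted p = 0.418), that against CP 0.54 and that against normal tissue 0.40.

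Aldolase splits the sugar into trioses. *Aldoa* had 54 counts in all libraries, of which 31 were in CP 1, and *Aldoc* spanned 0 to 6.03 CPM. In the table another gene model on the same strand, LOC103691235, covers the end of *Aldoa* and has 0 counts, so the level of *Aldoa* is uncertain.

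The 7 enzymes of lower glycolysis were all positive in AS against normal tissue (median log2 fold change 0.66), against 51.6% of all genes, and 6 of 7 were negative in EEP against AS (median -0.97) and in CP against AS tissue (median -0.86). Without AS 1 the AS against normal value was -0.12 for *Eno1* and -0.20 for *Gapdh*, so fewer than all 7 were then positive. In EEP 1, 2 and 3 *Pgam1* stood at 111, 72.3 and 41 CPM, and in CP 1, 2 and 3 at 109, 75.5 and 87.3 CPM. In AS 1, 2 and 3 *Pgam1* stood at 221, 135 and 136 CPM, and in normal 1, 2 and 3 at 88.5, 111 and 95.3 CPM. All 3 AS libraries were above all CP, EEP and normal libraries. *Pgam1*, phosphoglycerate mutase (chr1:240723832-240731443), had a log2 fold change of -1.13 ± 0.38 (SE, adjusted p = 0.376) for EEP against AS, -0.86 ± 0.38 (SE, adjusted p = 0.389) for CP against AS and 0.74 ± 0.38 (SE, adjusted p = 0.895) for AS against normal tissue. Leaving out any library kept the first between -1.53 and -0.78 and the second between -0.97 and -0.54, the weak end of the second being without AS 1, where the third was 0.44.

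Libraries EEP 1, 2 and 3 held 41.9, 12.8 and 0 CPM of *Eno1*, and libraries CP 1, 2 and 3 held 4.78, 11.9 and 8.18 CPM. Libraries AS 1, 2 and 3 held 73, 24.9 and 22.5 CPM, and libraries normal 1, 2 and 3 held 21.7, 33.7 and 20.7 CPM. All 3 CP libraries were below all AS and all normal libraries, and EEP 3 had no count of *Eno1*, the widespread enolase. CP against AS tissue gave a log2 fold change of -2.27 ± 0.91 (SE, adjusted p = 0.353), and without AS 1 it was -1.46. For EEP against AS tissue it was -1.11 ± 0.87 (SE, adjusted p = 0.704), with -2.58 when EEP 1 and -0.28 when AS 1 was left out. *Eno2* had 57.5, 119 and 100.9 CPM in EEP 1, 2 and 3, and 88.2, 106 and 74 CPM in CP 1, 2 and 3. The level was 116, 66 and 65.4 CPM in AS 1, 2 and 3, against 43.9, 45.7 and 68.8 CPM in normal 1, 2 and 3. *Eno2*, the neuronal enolase, was above every normal library in all 3 CP libraries and in EEP 2 and 3, and EEP against normal tissue gave 0.81 ± 0.37 (SE, adjusted p = 0.651). The table also lists 2 pseudogenes of *Eno1* with 430 counts, beside 2365 for *Eno1* itself, so its level is uncertain. These pseudogenes held 84 counts in CP and 81 in AS libraries, beside 133 and 680 for *Eno1*.

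In EEP 1, 2 and 3 *Gapdh* stood at 33.1, 7.65 and 0.867 CPM, and in CP 1, 2 and 3 at 11.3, 8.06 and 5.90 CPM. In AS 1, 2 and 3 *Gapdh* stood at 44.2, 12.9 and 26.7 CPM, and in normal 1, 2 and 3 at 14.1, 29.3 and 23.8 CPM. The 3 CP libraries lay below all AS and normal libraries, while EEP 1 to 3 spanned nearly the whole range. Its fold change on the log2 scale was -1.73 ± 0.78 (SE, adjusted p = 0.395) for CP against AS and -0.97 ± 0.75 (SE, adjusted p = 0.702) for EEP against AS tissue. The second value was -2.64 ± 0.73 (SE, adjusted p = 0.1) without EEP 1 and -0.39 without EEP 3. *Gapdh*, the triose phosphate dehydrogenase often used as a reference gene, has 9 pseudogene rows in the table with 244 counts, beside 1879 for the gene, so its level is uncertain too. These rows held 88 counts in CP and 27 in AS libraries, beside 124 and 466 for *Gapdh*. The CP against AS value may therefore depend on how reads were assigned, which was not tested. *Tpi1*, triose phosphate isomerase, was above all normal libraries in all 3 AS libraries, averaging 82.7 ± 16 CPM in AS and 45.6 ± 9.91 CPM in normal libraries (SD, n = 3 each), with a log2 fold change of 0.86 ± 0.43 (SE, adjusted p = 0.895). *Pgk1*, phosphoglycerate kinase, averaged 78 ± 39.1 CPM in EEP, 92.1 ± 22.8 CPM in CP, 111 ± 20.9 CPM in AS and 84.2 ± 13 CPM in normal libraries. *Pkm*, pyruvate kinase, averaged 7.50 ± 6.77 CPM in EEP, 7.85 ± 7.16 CPM in CP, 18.4 ± 14.8 CPM in AS and 8.37 ± 3.49 CPM in normal libraries, with 35.3 CPM in AS 1.

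Lactate dehydrogenase turns pyruvate into lactate and back. The A subunit is a known hypoxia target, and the B subunit is typical of oxidative tissue. *Ldha* had 61.2, 23.9 and 13 CPM in EEP 1, 2 and 3, and 53.3, 29.4 and 20.7 CPM in CP 1, 2 and 3. The level was 177, 43.7 and 39.1 CPM in AS 1, 2 and 3, against 35.2, 47 and 41.3 CPM in normal 1, 2 and 3. AS 1 stood far above the other 11 libraries, and AS 2 and 3 lay within the normal range. The log2 fold change of *Ldha* (chr1:97371823-97381247) was -1.39 ± 0.60 (SE, adjusted p = 0.451) for EEP against AS, -1.33 ± 0.60 (SE, adjusted p = 0.4) for CP against AS and 1.07 ± 0.60 (SE, adjusted p = 0.895) for AS against normal tissue. Without AS 1 the first value was -0.27, the second -0.23 and the third -0.01, so AS 1 decided the sign of the third; without EEP 1 the first was -2.22. In EEP 1, 2 and 3 *Ldhb* stood at 29.9, 14.3 and 29.2 CPM, and in CP 1, 2 and 3 at 30.2, 35.1 and 22.8 CPM. In AS 1, 2 and 3 *Ldhb* stood at 30.8, 37.4 and 40.3 CPM, and in normal 1, 2 and 3 at 49, 49.95 and 56.2 CPM. All 3 normal libraries lay above all 9 injured ones, and all 3 EEP libraries lay below all AS libraries. *Ldhb* (chr4:175428382-175446403) gave -1.08 ± 0.35 (SE, adjusted p = 0.518) for EEP against normal, -0.82 ± 0.35 (SE, adjusted p = 0.349) for CP against normal and -0.52 ± 0.35 (SE, adjusted p = 0.938) for AS against normal tissue. The value of EEP against normal stayed between -1.27 and -0.81 with any library left out.

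**Figure D2:**
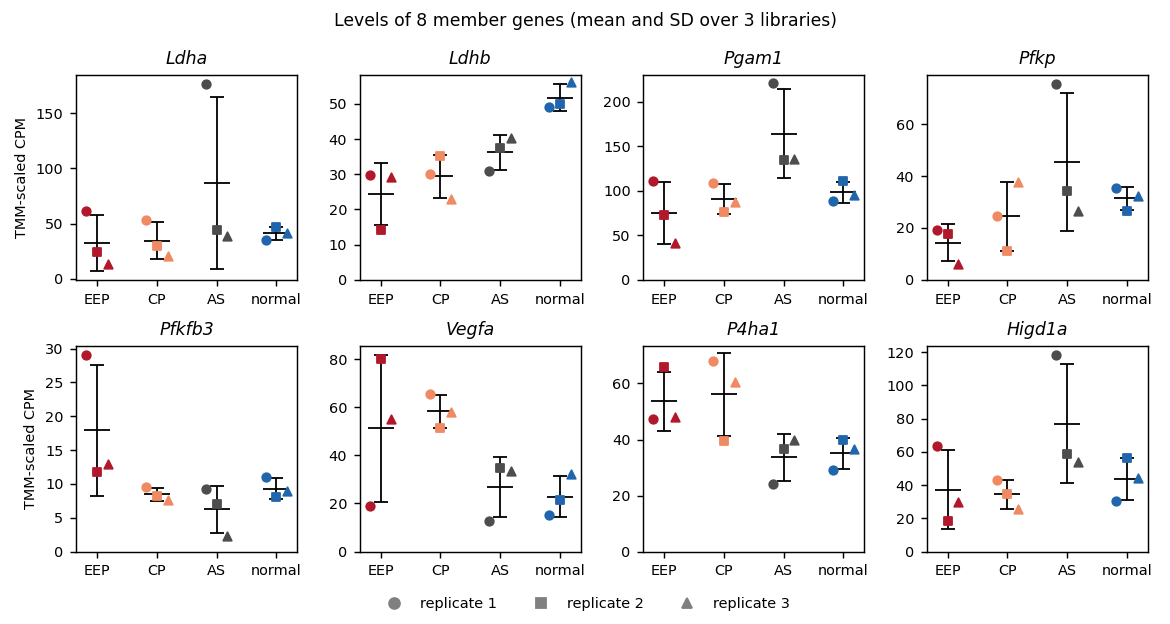
TMM-scaled CPM of 8 members by group; each symbol is a library (shape gives the replicate), the bar marks the mean and the whiskers the SD over 3 libraries. AS 1 stands apart for *Ldha* at 177 CPM, and the 3 normal libraries of *Ldhb* lie above the other 9.

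The promoters of *Ldha*, *Pfkfb3*, *Pgam1* and *Ldhb* are shown because these enzymes carry the values above and differ in how often the core sequence bound by the hypoxia-inducible factors occurs in them. The sequences are the 250 bases before the start of each gene, from RefSeq on GRCr8, on the strand of the gene and 5' to 3', with capitals for ACGTG or GCGTG on either strand (CACGT or CACGC where the match is on the other strand). The *Ldha* window is chr1:106507842-106508091 (plus strand), the *Pfkfb3* window chr17:71944683-71944932 (plus strand), the *Pgam1* window chr1:250672902-250673151 (plus strand) and the *Ldhb* window chr4:177177409-177177658 (minus strand).
Ldha: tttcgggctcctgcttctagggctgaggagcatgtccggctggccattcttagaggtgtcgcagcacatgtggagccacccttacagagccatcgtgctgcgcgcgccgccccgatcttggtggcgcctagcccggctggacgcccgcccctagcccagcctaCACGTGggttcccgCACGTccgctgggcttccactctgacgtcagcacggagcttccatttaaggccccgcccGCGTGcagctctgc
Pfkfb3: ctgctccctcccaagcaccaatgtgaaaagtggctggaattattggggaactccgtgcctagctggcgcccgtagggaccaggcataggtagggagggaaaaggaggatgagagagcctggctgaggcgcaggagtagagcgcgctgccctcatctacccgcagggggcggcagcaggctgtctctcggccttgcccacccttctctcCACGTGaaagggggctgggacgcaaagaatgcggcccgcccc
Pgam1: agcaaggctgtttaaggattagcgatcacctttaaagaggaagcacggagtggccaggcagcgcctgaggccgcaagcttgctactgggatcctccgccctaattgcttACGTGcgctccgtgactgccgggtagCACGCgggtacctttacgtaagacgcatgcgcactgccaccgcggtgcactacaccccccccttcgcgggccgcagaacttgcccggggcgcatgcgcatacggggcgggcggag
Ldhb: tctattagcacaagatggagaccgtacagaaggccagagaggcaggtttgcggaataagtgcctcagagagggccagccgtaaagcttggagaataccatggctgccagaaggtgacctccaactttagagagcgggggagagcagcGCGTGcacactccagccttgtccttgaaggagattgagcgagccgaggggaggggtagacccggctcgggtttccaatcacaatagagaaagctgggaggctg
These windows held 4, 2, 2 and 1 matches, where the 6-base palindrome in *Ldha* and *Pfkfb3* counts as 2 overlapping matches. Of the 36 members 31 had a promoter in the RefSeq table. ACGTG was in 41.9% of these 31 (13 promoters), in 21.8% of the promoters of 11008 genes tested and in 16.9% of all 27456 promoters. GCGTG was in 51.6% of the members' promoters, against 43.4% of those of genes tested. Either of the 2 was in 64.5% of the members' promoters, against 54.6% of those of genes tested. No match was found in the window of *Vegfa*, but bases further than 250 from the start of a gene were not searched.

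The hypoxia genes in charge of transport are Slc2a1 and Slc2a3, glucose carriers, and Slc16a3, a lactate carrier. Libraries EEP 1, 2 and 3 held 22.3, 11.7 and 5.49 CPM of *Slc2a1*, and libraries CP 1, 2 and 3 held 15.6, 16.3 and 12.7 CPM. Libraries AS 1, 2 and 3 held 46, 11.5 and 15.4 CPM, and libraries normal 1, 2 and 3 held 14.2, 10.5 and 20.1 CPM. AS 1 stood apart at 46.05 CPM and the other AS libraries were within the normal range, so the groups overlapped in every comparison. EEP against AS tissue gave -0.86 ± 0.56 (SE, adjusted p = 0.635) on the log2 scale, which changed sign to 0.05 without AS 1 and was -1.49 without EEP 1. *Slc2a3* averaged 9.07 ± 8.82 CPM in EEP, 14.2 ± 9.31 CPM in CP, 17.2 ± 9.39 CPM in AS and 8.70 ± 3.38 CPM in normal libraries. *Slc16a3* was at 23.0 CPM in EEP 1 and 0.192 to 12.6 CPM elsewhere; its end overlaps *Csnk1d* on the other strand, which has 2866 counts against 636, so its level is uncertain. *Pdk1*, which blocks pyruvate entry into mitochondria, spanned 0 to 5.79 CPM.

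The oxygen sensing members are the HIF alpha subunits and the prolyl hydroxylases that mark them. In EEP 1, 2 and 3 *Hif1a* stood at 12.2, 17.7 and 21.1 CPM, and in CP 1, 2 and 3 at 12.3, 23.3 and 17.5 CPM. In AS 1, 2 and 3 *Hif1a* stood at 13.6, 14.4 and 8.498 CPM, and in normal 1, 2 and 3 at 18, 10.1 and 14.7 CPM. The groups overlapped in all 6 comparisons for *Hif1a*, whose protein and not its RNA is the main point of oxygen control, and the log2 fold change was 0.48 ± 0.43 (SE, adjusted p = 0.751) for EEP against AS tissue. *Epas1*, the HIF2 alpha subunit, averaged 63.5 ± 42.4 CPM in EEP, 86.9 ± 24.4 CPM in CP, 60.5 ± 27.8 CPM in AS and 52.5 ± 12.2 CPM in normal libraries. Of the prolyl hydroxylases, *Egln1* averaged 12.2 ± 1.32 CPM in EEP and 16.1 ± 6.85 CPM in AS libraries. *Egln3*, itself a hypoxia target, averaged 5.96 ± 4.35 CPM in EEP and 3.59 ± 5.06 CPM in AS libraries.

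Vegfa, the main growth factor of new vessels, and Adm, a vessel-widening peptide, are the secreted members. *Vegfa* had 18.8, 79.9 and 54.9 CPM in EEP 1, 2 and 3, and 65.4, 51.5 and 58 CPM in CP 1, 2 and 3. The level was 12.6, 34.5 and 33.4 CPM in AS 1, 2 and 3, against 15.2, 21.3 and 32.1 CPM in normal 1, 2 and 3. All 3 CP libraries lay above all 6 AS and normal libraries, and EEP 1 at 18.8 CPM lay within them while EEP 2 and 3 did not. *Vegfa* (chr9:14955300-14970641) gave 1.12 ± 0.50 (SE, adjusted p = 0.389) for CP against AS, 1.35 ± 0.50 (SE, adjusted p = 0.284) for CP against normal and 1.16 ± 0.49 (SE, adjusted p = 0.632) for EEP against normal tissue. For EEP against AS tissue it gave 0.93 ± 0.49 (SE, adjusted p = 0.546) and, without EEP 1, 1.33 ± 0.44 (SE, adjusted p = 0.154). Without EEP 2 the EEP against normal value was 0.66 and the EEP against AS value 0.44. A fit of CP and normal libraries alone called *Vegfa*, with an adjusted p of 0.0312 in edgeR. That fit called far more genes in all than the fit of all libraries, which called 0 in CP against normal tissue. The call is therefore not particular to *Vegfa*. *Adm* averaged 5.67 ± 5.08 CPM in EEP and 7.97 ± 9.92 CPM in AS libraries.

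**Figure D3:**
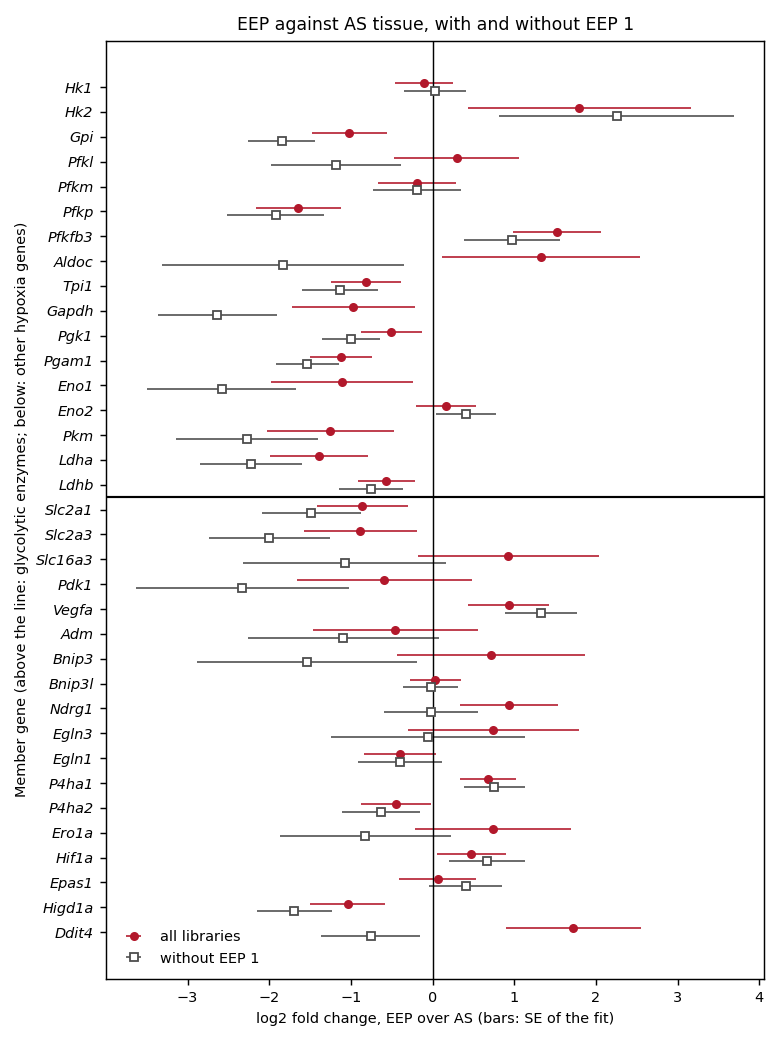
Log2 fold change of EEP over AS tissue for 35 members in edgeR; filled points use all libraries, open squares leave out EEP 1, and bars are the SE of the fit. Without EEP 1 the median of the enzymes moves to -1.19, and that of the other hypoxia genes to -0.70.

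Among mitophagy and stress genes, Higd1a, a protein of the respiratory chain made under low oxygen, was highest in AS 1. Libraries EEP 1, 2 and 3 held 63.8, 18.2 and 30.1 CPM of *Higd1a*, and libraries CP 1, 2 and 3 held 43.2, 34.4 and 25.7 CPM. Libraries AS 1, 2 and 3 held 118, 58.7 and 54.2 CPM, and libraries normal 1, 2 and 3 held 30.6, 56.3 and 44.4 CPM. All 3 CP libraries were below all 3 AS libraries, and EEP 1 overlapped AS. The log2 fold change was -1.16 ± 0.46 (SE, adjusted p = 0.351) for CP against AS and -1.04 ± 0.46 (SE, adjusted p = 0.465) for EEP against AS tissue; without AS 1 these were -0.68 and -0.53, and without EEP 1 the second was -1.69. *Ddit4*, an inhibitor of mTORC1, was at 94.9 CPM in EEP 1 and 6.45 CPM and 6.65 CPM in EEP 2 and 3, against 15.4, 10.4 and 7.31 CPM in AS 1, 2 and 3. On the log2 scale it gave 1.72 ± 0.83 (SE, adjusted p = 0.501) for EEP against AS tissue and -0.76 ± 0.61 (SE, adjusted p = 0.559) without EEP 1, so EEP 1 decided its sign. The mitophagy receptors *Bnip3* and *Bnip3l* averaged 3.37 ± 4.56 CPM and 138 ± 8.12 CPM in EEP, against 2.14 ± 1.95 CPM and 135 ± 21.5 CPM in AS libraries. *Ndrg1*, a stress-induced gene, was at 64.6 CPM in EEP 1 and 56.8 CPM in CP 1, and between 10.5 and 34.7 CPM in the other 10 libraries.

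P4ha1 and P4ha2 carry the active site of the enzyme that hydroxylates collagen prolines, and Ero1a oxidizes proteins in the endoplasmic reticulum. In EEP 1, 2 and 3 *P4ha1* stood at 47.2, 65.9 and 48 CPM, and in CP 1, 2 and 3 at 68.1, 39.5 and 60.7 CPM. In AS 1, 2 and 3 *P4ha1* stood at 24.3, 36.6 and 39.9 CPM, and in normal 1, 2 and 3 at 29, 39.7 and 36.6 CPM. All 3 EEP libraries were above all AS and normal libraries for *P4ha1*, and CP 2 was within them. *P4ha1* gave, on the log2 scale, 0.74 ± 0.34 (SE, adjusted p = 0.408) for CP against AS and 0.68 ± 0.34 (SE, adjusted p = 0.534) for EEP against AS tissue. *P4ha2* averaged 16.1 ± 3.44 CPM in EEP, 24.8 ± 8.15 CPM in CP, 22.1 ± 9.20 CPM in AS and 24.1 ± 8.08 CPM in normal libraries. *Ero1a* spanned 0 to 12.9 CPM.

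Ratios of members with related roles were compared within each library, where library scaling cancels. For 11 ratios in 6 comparisons, 7 of 66 exact two-sided permutation tests gave the smallest p that 3 against 3 libraries allow, 0.1, and the smallest adjusted p was 0.8. Where groups do not differ, a test reaches this p with a probability of 0.1, and 7 of 66 is close to that share. The ratios below are therefore a description of these libraries only. The log2 ratio of *Ldhb* to *Ldha* was -1.04, -0.74 and 1.16 in EEP 1, 2 and 3, -0.82, 0.26 and 0.14 in CP 1, 2 and 3, -2.52, -0.23 and 0.04 in AS 1, 2 and 3 and 0.48, 0.09 and 0.44 in normal 1, 2 and 3. It was lower in all 3 AS libraries than in all 3 normal ones, with a difference in means of -1.23, which was -0.43 without AS 1 and between -1.71 and -1.16 without any other library. EEP 3 had the highest value of all 12. The log2 ratio of *P4ha2* to *P4ha1* was -1.25, -2.09 and -1.87 in EEP 1, 2 and 3, -0.99, -0.99 and -1.57 in CP 1, 2 and 3, -1.07, -0.48 and -0.49 in AS 1, 2 and 3 and -0.54, -0.25 and -0.95 in normal 1, 2 and 3. All 3 EEP libraries were below all AS and normal libraries, by -1.06 and -1.16 in mean. All 3 CP libraries were also below all normal libraries, by -0.61 in mean, but overlapped AS. The log2 ratio of *Eno2* to *Eno1* was higher in all 3 CP libraries than in AS and normal ones, by 2.29 and 2.43 in mean. It was 0.46, 3.22 and 9.45 in EEP 1, 2 and 3, where EEP 3 had no count of *Eno1*. The EEP mean was 4.37 and the CP mean 3.49. The log2 ratio of *Hk2* to *Hk1* was higher in EEP than in normal libraries, by 2.37 in mean and by 1.52 without normal 2.

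**Figure D4:**
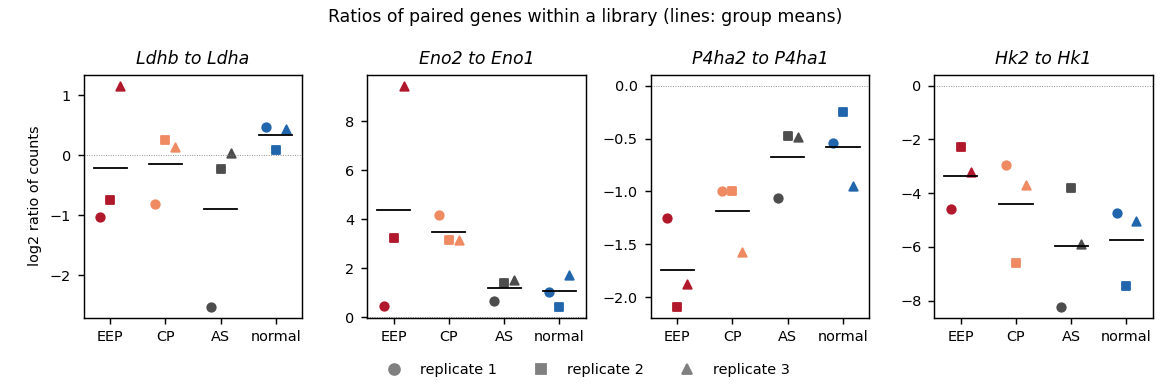
Log2 ratio of the counts of 2 members in each library, by group (symbols are libraries, lines group means). The 3 AS libraries lie below the 3 normal ones for *Ldhb* to *Ldha*, and the 3 EEP libraries below the AS and normal ones for *P4ha2* to *P4ha1*. For *P4ha2* to *P4ha1* the 3 CP libraries also lie below the normal ones.

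Other genes of the same pathways were not called either, apart from 2 under other settings. Of 33 further glycolysis and glucose genes 25 were tested, and of 43 further hypoxia pathway genes 40. None passed in any comparison in DESeq2 or in the edgeR fit of all 12 libraries with the low-count filter. Without that filter edgeR called *Hmox1* in EEP against normal tissue (adjusted p = 0.0304) and *Pygl* in CP against normal tissue (adjusted p = 0.0496). A fit of CP and normal libraries alone also called *Pygl* (adjusted p = 0.0445 in edgeR). In these comparisons both settings called far more genes in all than the filtered fit of all 12 libraries. The counts that follow are at an unadjusted p under 0.05, with the share or number of all genes tested beside them. Of the 25 glucose genes, 1 was higher and 0 were lower in AS against normal tissue, against 371 and 401 of 13909 genes. In EEP against AS tissue 0 were higher, against 4.97%, and 1 was lower, against 5.17%. In CP against AS tissue 0 were higher, against 5.28%, and 1 was lower, against 6.71%. In EEP against CP tissue 1 was higher and 0 were lower, against 260 and 156 of 13909 genes. In EEP against normal tissue 1 was higher, against 4.8%, and 0 were lower, against 2.76%. In CP against normal tissue 2 were higher, against 6.77%, and 2 were lower, against 5.88%. Of the 40 hypoxia genes, 0 were higher and 4 lower in AS against normal tissue, against 371 and 401 of 13909 genes. In EEP against AS tissue 4 were higher, against 4.97%, and 1 was lower, against 5.17%. In CP against AS tissue 5 were higher, against 5.28%, and 1 was lower, against 6.71%. In EEP against CP tissue 1 was higher and 1 lower, against 260 and 156 of 13909 genes. Against normal tissue, EEP had 3 higher, against 4.8%, and 0 lower, against 2.76%. CP had 2 higher, against 6.77%, and 1 lower, against 5.88%. *Mpc2*, a subunit of the mitochondrial pyruvate carrier, averaged 48.3 ± 10.6 CPM in EEP, 45.0 ± 12.2 CPM in CP and 92.2 ± 13.1 CPM in AS libraries (SD, n = 3 each). On the log2 scale this was a change of -0.93 ± 0.34 (SE, adjusted p = 0.391) for EEP against AS and -1.03 ± 0.34 (SE, adjusted p = 0.308) for CP against AS tissue. *Tfrc*, the transferrin receptor, gave -1.66 for EEP against AS and -1.78 for CP against AS tissue. *Arnt2*, a partner of HIF alpha subunits, gave 1.80 for EEP against AS and -1.68 for AS against normal tissue. *Hmox1*, heme oxygenase, gave 2.08 for EEP against CP and 1.95 for EEP against normal tissue, with 72.3, 6.6 and 19.4 CPM in EEP 1, 2 and 3. Without EEP 1, its highest library, these values were 0.71 and 0.59. *Flt1*, a VEGFA receptor, gave 1.05 for EEP against normal tissue. *Pygl*, glycogen phosphorylase of liver, gave 1.94 for CP against normal tissue. *Kdm3a*, a histone demethylase induced by hypoxia, gave 0.89 for CP against AS tissue. *Ppp1r3c*, a glycogen-targeting subunit of a phosphatase, gave 1.07 for CP against normal tissue. The others named by the smallest p-values were *Insig2* (-2.79) and *Bpgm* (1.51) in AS against normal, and *Zfp36* (-0.95) and *Pgm1* (1.04) in EEP against CP tissue, none of which passed.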

How the data were processed

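Libraries were made with the QuantSeq 3' kit from 1000 ng of total RNA and read as single-end 75 bp reads, per the labels' protocols. Reads were aligned with Bowtie2 and quantified with bedtools, per the submitters' processing notes, which name the mouse build mm10, whereas the deposited information sheet names mRatBN7.2; gene symbols are those of rat. The authors deposited raw counts per gene, used for every result, and log2 values of TMM-scaled CPM, used only for a check, in which recomputed values differed by at most 0.0625. Whether counting used strand is not given in the sources used here.

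The members, gene lists and tests were chosen with earlier results of these data known. From the counts, genes were filtered with filterByExpr and scaled by TMM, and all 12 libraries entered 1 quasi-likelihood fit with 4 group means in edgeR 4.0.16 under R 4.3.3 (biological coefficient of variation 59.2%). Adjusted p-values are Benjamini-Hochberg over 13909 genes, with a threshold of 0.05, and fold changes are log2 with the SE of the fit. This SE was derived from the test, as the absolute log2 fold change divided by the square root of the quasi-likelihood F statistic. The procedure was tested on simulated data. DESeq2 1.42.0 was an alternative. Ratios used counts + 0.5. Per-library values are given for members with an unadjusted p under 0.05 in any comparison and for 6 fixed members (*Hk2*, *Ldha*, *Ldhb*, *Slc2a1*, *Vegfa* and *Hif1a*). From the 2 further pathway lists, the 3 genes with the smallest p-values per comparison are named, except 1 that is not reported here. Chromosome names and promoters come from RefSeq tables on GRCr8, matched by gene identifier, and gene coordinates are those of the deposited table. Figures were drawn with matplotlib 3.10.9.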

Additional observations from a re-analysis of the deposited data

How the results depend on the processing

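No member was called under RLE scaling, DESeq2, a stricter filter (5 CPM in 3 libraries), the mitochondrial share as a covariate, counts without mitochondrial genes, an adjusted p under 0.1 or any single library left out. Without a low-count filter 1 member was called in EEP against AS (*Ddit4*), 1 in CP against AS (*Eno1*) and 1 in CP against normal tissue (*Eno1*), and a fit of CP and normal libraries alone called 1 (*Vegfa*). *Ddit4* stood at 94.9 CPM in EEP 1, against 6.45 and 6.65 CPM in EEP 2 and 3. Its log2 fold change in the filtered fit changed sign to -0.76 without EEP 1. With AS 1 and EEP 1 both left out, an alternative chosen after seeing the data, 1 member was called in EEP against AS tissue (*Gpi*, adjusted p = 0.0499 in edgeR), with 87 genes called in all and medians of -1.16 for the enzymes and -0.20 for the other hypoxia genes.

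Over all genes, edgeR called 1 in AS against normal, 2 in EEP against AS, 1 in CP against AS, 0 in EEP against CP, 1 in EEP against normal and 0 in CP against normal tissue. DESeq2 called 29 genes in AS against normal, 126 in EEP against AS, 116 in CP against AS, 61 in EEP against normal and 261 in CP against normal tissue. Without a filter the counts were 154, 143, 230, 232 and 445 in the same order, and 5 in EEP against CP. Fits of 2 groups alone called 1 in EEP against AS, 3 in EEP against normal and 585 in CP against normal tissue. The covariate gave 2 in CP against AS and 2 in EEP against normal, an adjusted p under 0.1 gave 2 in CP against AS and 6 in CP against normal, and the stricter filter and removal of mitochondrial genes each gave 0 in EEP against normal tissue.

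With the covariate the enzyme medians were 0.97 in AS against normal, -1.15 in EEP against AS, -0.87 in EEP against CP and 0.40 in CP against normal tissue. Those of the other hypoxia genes were -0.46 in EEP against AS, -0.78 in EEP against CP and 0.70 in CP against normal tissue. The cause was not tested.

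With each replicate left out in turn, genes called ran from 1 to 6 in AS against normal, 1 to 19 (without EEP 1) in EEP against AS, 1 to 5 in CP against AS, 0 to 200 (without EEP 1) in EEP against normal and 0 to 6 in CP against normal tissue. Enzyme medians ran from 0.22 to 0.65 in AS against normal, -1.19 to -0.28 in EEP against AS, -0.50 to -0.24 in CP against AS, -0.73 to 0.21 in EEP against CP, -0.97 to 0.15 in EEP against normal and -0.29 to 0.01 in CP against normal tissue. Medians of the other hypoxia genes ran from -0.13 to 0.11, -0.70 to 0.37, 0.02 to 0.43, -0.75 to 0.26, -0.43 to 0.41 and -0.04 to 0.41 in the same order. Ratio tests without overlap ran from 7 to 15. At 1202525 nuclear counts, EEP 3 limits what can be said of members near 1 CPM, such as *Hk2*, *Aldoc*, *Pdk1* and *Bnip3*, and a p that misses the threshold does not show that values were equal.

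Deviations from the group means correlated at -0.103 to 0.390 between libraries of equal number in 18 pairs of libraries, 5 of them over 0.1. The highest was EEP 1 with AS 1. Between libraries of unequal number they ran from -0.295 (EEP 1 with AS 2) to 0.210 (EEP 2 with AS 3). These correlations cannot show whether libraries share an animal, which the labels do not give. The numbers were not taken to pair samples. A fit with the replicate block called 4 genes in EEP against normal and 11 in CP against normal tissue, and no member.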
